A study of Sus scrofa with 14 samples.

Results

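Mitochondrial DNA encodes 7 subunits of respiratory complex I, and the genes ND1, ND2, ND3, ND4L, ND4, ND5 and ND6 were followed across 7 groups of porcine pluripotent-type cells. They were picked by their Ensembl identifiers, not by their values, and are 7 of the 19588 genes in the table; all 7 passed the filter on low values in every comparison. The study sequenced polyadenylated RNA of 2 samples from each group, 14 in all, to ask how culture media and cell origin bear on expression. The pESCLC-primary group was 2 outgrowths of inner cell mass from blastocysts in the F condition, which has FGF2 as its growth factor. In the study's methods blastocysts were plated in pESC medium, a low-glucose medium with fetal bovine serum and FGF2. F medium is defined there as human embryonic stem cell medium with serum replacement and a lower dose of FGF2. The study's results, however, also use the term F for the pESC medium of the blastocyst work. The pESCLC-primary and pESCLC-F samples are described as grown in F in that sense. The pESCLC lines came from such outgrowths: pESCLC-F consisted of A1 and A2, each at its passage 2. For pESCLC-FLB2i the pair was line B1 at passages 3 and 6, from cells moved to FL6i at day 8 and from there to FLB2i at day 18, in medium with LIF, FGF2, BMP4, the GSK3 inhibitor CHIR99021 and the TGFB receptor inhibitor A83-01. The pESCLC-FL6i pair was line C2 at passages 3 and 9, moved to that medium at day 8, in FGF2 and LIF with inhibitors of p38, JNK, MEK, GSK3, TGFB and BMP signalling. Lv-piPSC-F cells had been reprogrammed with lentiviruses and grown in F medium, described for them as DMEM/F12 with FGF2 and not as the pESC medium. Both sample labels carry ID6, the name of the study's Lv-piPSC line, and the label of the second adds a further code. The second sample was at passage 46, and no passage was given for the first. Epi-piPSC lines were made from fetal fibroblasts with episomal plasmids for human POU5F1, SOX2, KLF4, LIN28 and L-MYC and a short hairpin against p53. Epi-piPSC-FLB2i was line B5 at passages 9 and 12, and Epi-piPSC-FL6i was lines C10 at passage 12 and C11 at passage 11. All groups were kept on irradiated mouse embryonic fibroblasts, and how many reads came from these feeder cells was not tested. Since several pairs were passages of the same line, the p-values below measure the spread between these samples and not that between independent derivations. The RNA is from bulk cultures, in which fewer cells of a type and less RNA per cell cannot be told apart.

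Complex I takes electrons from NADH and pumps protons across the inner mitochondrial membrane, and it is the entry point of the respiratory chain. The mitochondrial subunits form its membrane arm: ND1 lies at the junction with the peripheral arm, ND2, ND4 and ND5 are the antiporter-like subunits, and ND3, ND4L and ND6 are small subunits between them. Their genes have no promoters of their own; long precursors are transcribed from each strand of the circular genome and cut into mRNAs, mostly at tRNAs. ND6 is read from the strand opposite to the rest, and in human cells its mRNA is known to carry little or no poly(A) tail. Pluripotent cells differ in how far they rely on respiration or on glycolysis, which makes these mRNAs of interest in cells grown under different signals.

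The genes lie on the circular mitochondrial chromosome (MT, 16613 bases) of Sscrofa11.1, and none has introns. ND1 (ENSSSCG00000018065) spans 3922-4876, ND2 (ENSSSCG00000018069) 5087-6128, ND3 (ENSSSCG00000018084) 10653-10998, ND4L (ENSSSCG00000018086) 11069-11365, ND4 (ENSSSCG00000018087) 11359-12736 and ND5 (ENSSSCG00000018091) 12935-14755, all on the plus strand, and ND6 (ENSSSCG00000018092) spans 14739-15266 on the minus strand. The last 30 bases of each gene are shown because the libraries captured poly(A) tails, and the genes differ in how they end. In 4 genes the annotation stops at a lone T, to which the poly(A) tail adds the rest of the stop codon, and 3 genes end in a whole TAA. Sequences are from RefSeq's Sscrofa11.1, written 5′ to 3′ on the strand of the gene, with the bases of the stop codon in capitals.
ND1 (4847-4876): ttataacagcaagcattcccccacaatcaT
ND2 (6099-6128): ctataacaccagccctctcgtccctaaacT
ND3 (10969-10998): gaacccaaaaaggcctagaatgagcagaaT
ND4 (12707-12736): accctaaaataatcctaggacccctttacT
ND4L (11336-11365): gtccaaaacttaaaccttttacaatgcTAA
ND5 (14726-14755): agcataacactatttaattaccacgagTAA
ND6 (14739-14768): gttattatagagattactcgtggtaatTAA

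ND4L and ND4 share 7 bases on the same strand, and ND5 and ND6 share 17 bases at their 3′ ends on opposite strands. These junctions are shown, on the plus strand with the shared bases in capitals, because a read that covers them lies within the annotated span of both genes.
ND4L and ND4 (11349-11375): accttttacaATGCTAAaaattattat
ND5 and ND6 (14729-14765): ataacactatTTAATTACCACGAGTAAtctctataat
The ATG of ND4 thus lies before the TAA of ND4L. Of the ND6 coding strand, 27.1% of bases were G and 44.9% were T, whereas G made up 9.60% to 12.8% of the other 6 genes. The libraries came from a stranded kit, but the strand setting of the counting is not stated beyond default parameters, and without it reads from the transcripts of both strands cannot be told apart. The values of ND6, which lies opposite to long transcripts of the other strand, are therefore uncertain.

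Sequencing depth was between 6193659 reads on genes, in the second pESCLC-FL6i sample, and 58878377, in the second Lv-piPSC-F sample. The 7 genes together took 0.984% to 2.49% of these reads, and the 95% Wilson intervals of these shares, which cover counting error only, reached at most 0.00777 percentage points to either side. The fewest reads on any of the 7 in a sample were 242, on ND6 in the second pESCLC-FL6i sample; in the first Lv-piPSC-F sample ND6 had 21248 reads and ND4L 13218.

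Several samples stood apart from their duplicates. The fibroblast markers, collagens for the most part, summed to 296112 normalized counts in the second pESCLC-FL6i sample and 1446 in the first, and LIN28A, an RNA-binding protein of pluripotent cells, was listed at 0 in the second. In pESCLC-FLB2i the same fibroblast sum was 2364 at passage 3 and 44512 at passage 6, and in Lv-piPSC-F it was 624 in the first sample and 21305 in the second. The first Lv-piPSC-F sample also differed from all others in several small unnamed genes of the mitochondrial genome. In most of those where it was highest, the second Lv-piPSC-F sample came next. ENSSSCG00000018067, for example, held 220 and 71.0 in these 2 samples and at most 34.0 in the other groups. For the comparisons that use these groups, values with 1 of their samples left out are given below.

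Per kilobase of gene, ND4 had the highest mean level of the 7 in pESCLC-primary (48992 ± 421 normalized counts per kilobase, SD, n = 2), followed by ND4L, ND5, ND1, ND2 and ND3. ND6 had the lowest mean in all 7 groups, at 1713 ± 1105 in pESCLC-primary; in the first Lv-piPSC-F sample alone it was slightly above ND5 (ratio 1.03). ND4 also led in pESCLC-F, pESCLC-FLB2i and Epi-piPSC-FLB2i, whereas ND1 led in the means of pESCLC-FL6i, Lv-piPSC-F and Epi-piPSC-FL6i. In pESCLC-FL6i ND1 (41698 ± 11379) and ND4 (40859 ± 8242) differed by less than their spread, and in the second sample ND4 was above ND1. In Lv-piPSC-F the order per kilobase was ND1 (122667 ± 2779), ND2 (103461 ± 5208), ND3 (70572 ± 1129), ND4, ND4L, ND5 and ND6. ND5, a core antiporter-like subunit, thus ranked 3 of 7 in pESCLC-primary and 6 of 7 in Lv-piPSC-F, although its mean level per kilobase differed by less than the spread between samples (35555 ± 1586 and 34773 ± 11420).

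**Figure D1:**
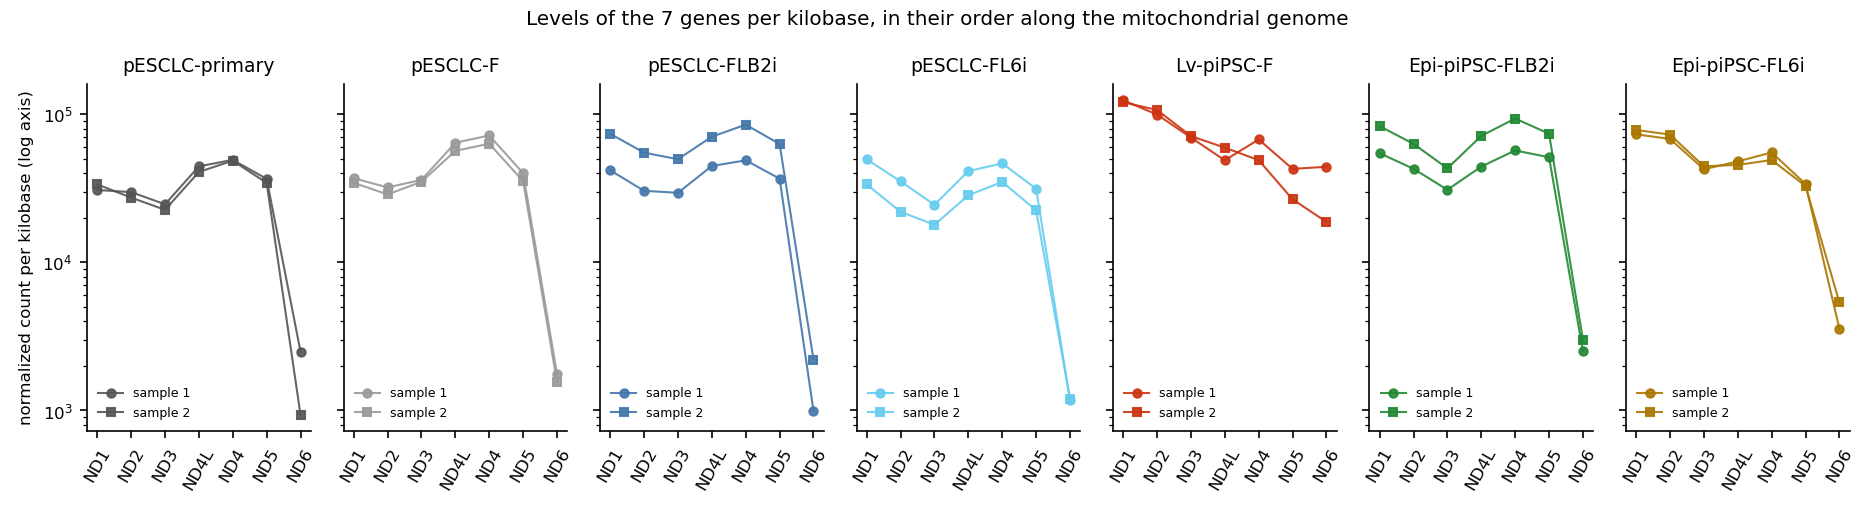
Normalized count per kilobase of gene (log axis) for the 7 genes in genome order, in a panel for each group; circles are the first and squares the second sample, joined by lines for the eye. ND6 falls far below the other genes in each panel except Lv-piPSC-F, where ND1, ND2 and ND3 stand above ND4L, ND4 and ND5.

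In normalized counts, ND1 held 29477 and 32165 for the pESCLC-primary samples, 35378 and 32957 for pESCLC-F, 47505 and 32137 for pESCLC-FL6i, 40046 and 70619 for pESCLC-FLB2i, 119023 and 115271 for Lv-piPSC-F, 52211 and 79531 for Epi-piPSC-FLB2i, and 70018 and 74925 for Epi-piPSC-FL6i. Lv-piPSC-F stood above every other sample, both pESCLC-primary samples were below those of pESCLC-F, and the other 4 pairs of neighbouring groups overlapped. The range from lowest to highest sample was 4.04-fold, with a median of 49858.

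ND2 held 31107 and 28560 for pESCLC-primary, 33460 and 29999 for pESCLC-F, 36780 and 22902 for pESCLC-FL6i, 31736 and 57474 for pESCLC-FLB2i, 103969 and 111644 for Lv-piPSC-F, 44704 and 65885 for Epi-piPSC-FLB2i, and 71155 and 76190 for Epi-piPSC-FL6i. The order at the top was Lv-piPSC-F, then Epi-piPSC-FL6i, then Epi-piPSC-FLB2i, with no overlap among these 3, and below them neighbours overlapped.

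ND3, the smallest subunit gene after ND4L, held 8546 and 7846 for pESCLC-primary, 12505 and 12141 for pESCLC-F, 8481 and 6217 for pESCLC-FL6i, 10221 and 17230 for pESCLC-FLB2i, 24142 and 24694 for Lv-piPSC-F, 10711 and 14946 for Epi-piPSC-FLB2i, and 14746 and 15436 for Epi-piPSC-FL6i. Lv-piPSC-F again stood above all other samples, and pESCLC-F lay above pESCLC-primary without overlap.

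ND4L, ND4 and ND5 were ordered differently, and the range over the 14 samples was narrower, at 2.52-fold, 2.68-fold and 3.29-fold. ND4L held 13244 and 12135 for pESCLC-primary, 19116 and 16845 for pESCLC-F, 12303 and 8438 for pESCLC-FL6i, 13314 and 21004 for pESCLC-FLB2i, 14543 and 17704 for Lv-piPSC-F, 13192 and 21258 for Epi-piPSC-FLB2i, and 14290 and 13541 for Epi-piPSC-FL6i. Its highest mean was in pESCLC-F, whose samples overlapped with those of Epi-piPSC-FLB2i and pESCLC-FLB2i. ND4, which shares its mRNA with ND4L, held 67921 and 67100 for pESCLC-primary, 99292 and 87405 for pESCLC-F, 64335 and 48272 for pESCLC-FL6i, 67435 and 117437 for pESCLC-FLB2i, 93350 and 67597 for Lv-piPSC-F, 78636 and 129219 for Epi-piPSC-FLB2i, and 76265 and 67761 for Epi-piPSC-FL6i. Of its 6 pairs of neighbouring groups 5 overlapped; pESCLC-FL6i was below all others.

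ND5, the largest of the subunit genes, held 66788 and 62703 for pESCLC-primary, 72926 and 64419 for pESCLC-F, 57353 and 41008 for pESCLC-FL6i, 67043 and 114932 for pESCLC-FLB2i, 78026 and 48616 for Lv-piPSC-F, 93556 and 134828 for Epi-piPSC-FLB2i, and 61650 and 59877 for Epi-piPSC-FL6i. The highest group was Epi-piPSC-FLB2i, overlapping with pESCLC-FLB2i, and the 2 Lv-piPSC-F samples lay on either side of pESCLC-primary.

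ND6 held 1317 and 492 for pESCLC-primary, 929 and 821 for pESCLC-F, 624 and 634 for pESCLC-FL6i, 524 and 1165 for pESCLC-FLB2i, 23378 and 9917 for Lv-piPSC-F, 1330 and 1586 for Epi-piPSC-FLB2i, and 1884 and 2836 for Epi-piPSC-FL6i. Its range was 47.5-fold, the widest of the 7. The order Lv-piPSC-F, Epi-piPSC-FL6i, Epi-piPSC-FLB2i, pESCLC-primary was without overlap at each step, though the higher pESCLC-primary sample came close to the lower Epi-piPSC-FLB2i sample, and neighbours among the 4 embryo-derived groups overlapped, while pESCLC-F and pESCLC-FL6i did not.

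**Figure D2:**
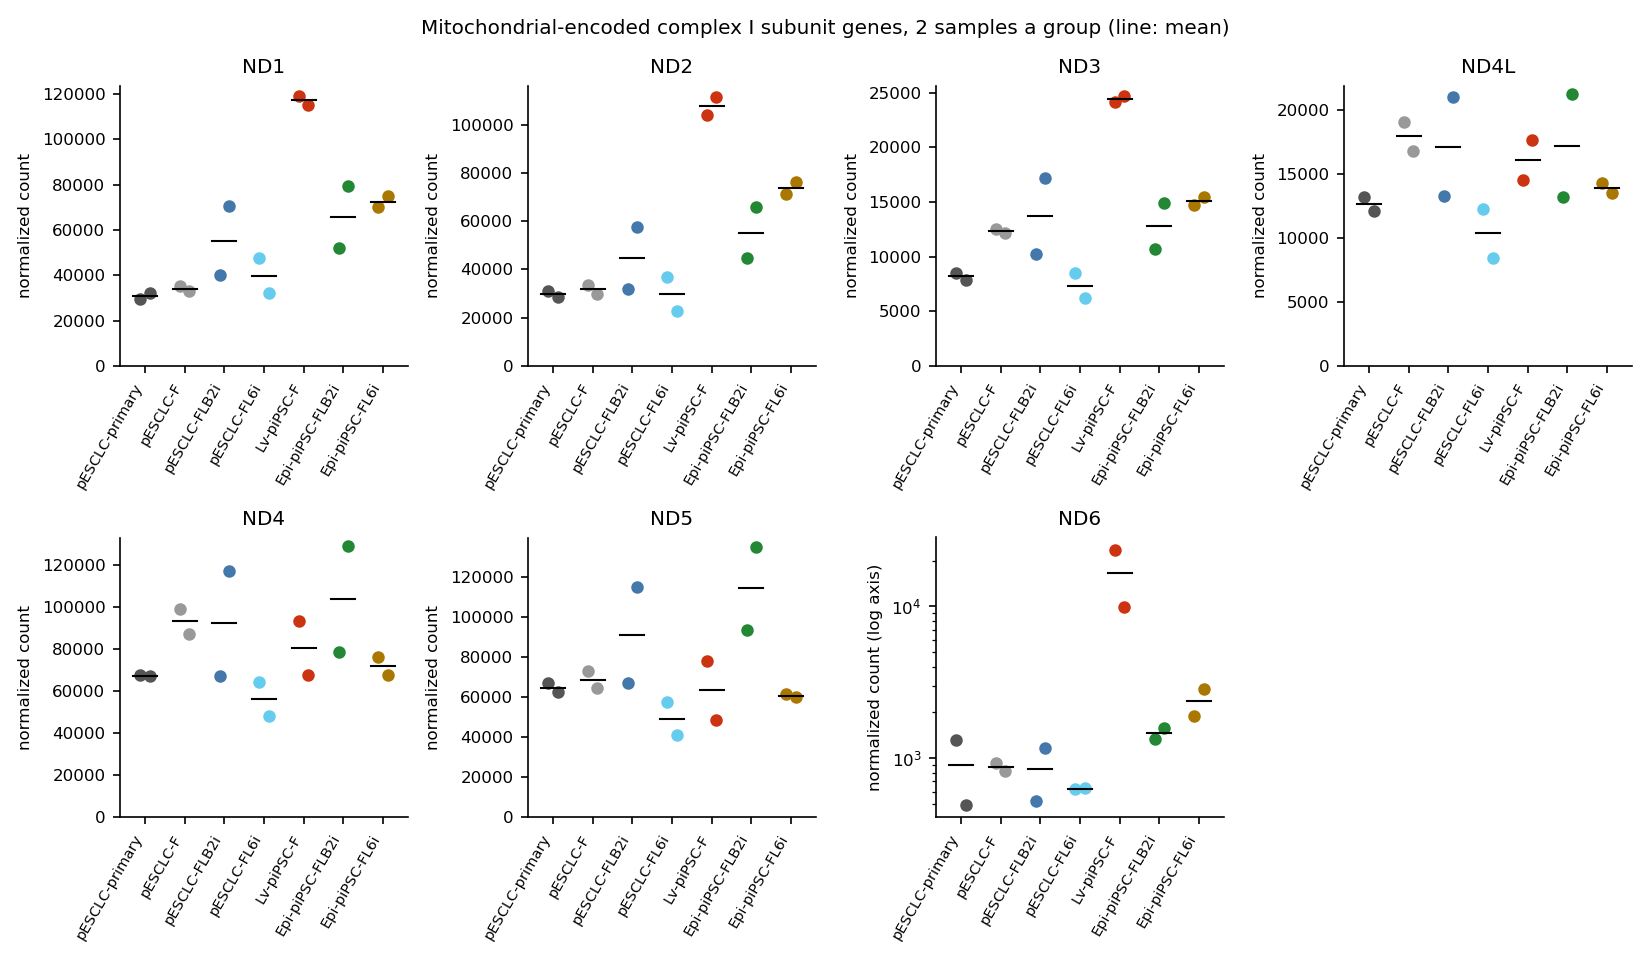
Normalized counts in each of the 14 samples, by group, in a panel for each gene (linear axes from 0, log axis for ND6); dots are samples and lines are means of 2. ND1, ND2, ND3 and ND6 are highest in the 2 Lv-piPSC-F samples, while ND4L, ND4 and ND5 in Lv-piPSC-F lie among the other groups.

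Differences were tested with limma on log2(normalized count + 1), with Benjamini-Hochberg adjustment over all genes of a comparison, and a gene was called at an adjusted p of at most 0.05; log2 fold changes are given ± SE. The 6 comparisons with pESCLC-primary share those 2 control samples. With 2 samples a group, an exact two-sided permutation test of a single gene cannot go below p = 0.333, so single genes are read from the limma fit only. A fit of 2 groups with 1 sample left out takes the spread between samples from the remaining pair alone and assumes that the lone sample varies like that pair. Calls gained or lost in such a fit therefore also follow which pair is left. Counts of such calls for a named sample are given with the share of all genes called in the same fit. The ranges of counts in the closing section are given without that share and are not read against it.

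None of the 7 genes was called between an embryo-derived line and pESCLC-primary. In pESCLC-F 0 of 7 were called, against 3.19% of the 13977 genes tested (1.44% higher and 1.75% lower); 3 of the 7 had an unadjusted p under 0.05, as had 20.5% of all genes, DESeq2 called 3 of the 7 and 9.18% of all genes, and edgeR called 0 of the 7 and 3.21%. The median log2 fold change was 0.15, against 0.02 over all genes, with positive estimates for all 7, though the mean count of ND6 was lower (875 against 904). With scaling to total reads, which moved the median of all genes to −0.13, the median of the 7 was −0.01 and 4 of them were negative. ND3 (0.59 ± 0.12, adjusted p = 0.0603), ND4L (0.50, adjusted p = 0.106) and ND4 (0.46, adjusted p = 0.203) came nearest to a call. In pESCLC-FLB2i 0 of 7 were called where 28.5% of all genes were (15.1% higher and 13.4% lower), with no unadjusted p under 0.05 (42.6% of all genes) and none called by DESeq2 (34.9%) or edgeR (26.0%). ND1 (0.79 ± 0.35, adjusted p = 0.162) and ND3 (0.70 ± 0.30, adjusted p = 0.147) had wide errors, since the passage 6 sample was higher than the passage 3 sample in all 7 genes; without the first pESCLC-FLB2i sample ND1, ND2, ND3, ND4L and ND5 were called higher, in a fit that called 43.5% of all genes (19.1% higher). Without the second, which stood apart in fibroblast markers, 0 were called where 38.3% of all genes were, and the median fell from 0.44 to 0.07, with ND1 at 0.38 and ND3 at 0.32. In pESCLC-FL6i 0 of 7 were called against a background of 15.3% (8.59% higher and 6.71% lower), none at an unadjusted p under 0.05 (32.7% of all genes) and none by DESeq2 (25.3%) or edgeR (12.6%). Of its 7 estimates 6 were negative (median −0.28, and −0.13 with scaling to total reads, which moved all genes from −0.04 to 0.10), with ND5 at −0.42 ± 0.47 (adjusted p = 0.579). The estimates depended on the sample left out: without the first pESCLC-FL6i sample ND4L was at −0.59 (adjusted p = 0.0260, in a fit that called 54.1% of all genes), and without the second ND1 was at 0.63 (adjusted p = 0.0467, where 37.4% were called).

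ND1, ND2, ND3 and ND6 were higher in Lv-piPSC-F than in pESCLC-primary, while ND4L, ND4 and ND5 did not pass the test. These 4 of 7 compare with 36.9% of all 14375 genes called and 18.3% called higher (18.6% lower); the median log2 fold change of the 7 was 1.58, against −0.03 over all genes tested (1.42 against −0.14 with scaling to total reads). ND1 rose by 1.93 ± 0.21 (adjusted p = 0.00621), which is 3.80-fold, ND2 by 1.85 ± 0.20 (adjusted p = 0.00654) and ND3 by 1.58 ± 0.14 (adjusted p = 0.00512). ND6 rose most, by 4.24 ± 0.62 (adjusted p = 0.0109, 95% interval 2.62 to 5.86), and was the only 1 of the 7 to reach an absolute log2 fold change of 3, a limit that 8.47% of genes passed. ND4L (0.34, 95% interval −0.11 to 0.79), ND4 (0.23, −0.45 to 0.92) and ND5 (−0.07, −0.86 to 0.72) had intervals that hold both no change and, for ND4, a rise of nearly 1 log2 unit. DESeq2 called 4 genes of the 7 and 44.8% of all genes, and edgeR 4 and 34.0%. Without the first Lv-piPSC-F sample, which differed in unnamed mitochondrial genes, ND6 was at 3.62, ND1 at 1.90 and ND4L at 0.48. Without the second, ND6 was at 4.86. Since the second sample shared part of the pattern in unnamed genes, leaving out the first does not remove that pattern. Without either of the pESCLC-primary samples limma called 0% of all genes, with the log2 fold changes of the 4 genes still between 1.51 and 4.95 and adjusted p between 0.0737 and 0.112.

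In Epi-piPSC-FL6i the same 4 genes were higher than in pESCLC-primary, in a comparison in which 57.0% of all 14366 genes were called, 28.5% as higher and 28.4% as lower. ND1 rose by 1.23 ± 0.11 (adjusted p = 0.000302), ND2 by 1.30 ± 0.11 (adjusted p = 0.00025), ND3 by 0.88 ± 0.09 (adjusted p = 0.000476) and ND6 by 1.52 ± 0.45 (adjusted p = 0.0294). ND4L (0.13, 95% interval −0.09 to 0.35), ND4 (0.09, −0.20 to 0.38) and ND5 (−0.09, −0.35 to 0.17) were close to the outgrowths, with intervals that leave room for differences of at most 0.38. The call of ND6 was lost with DESeq2 (adjusted p = 0.0946), in a single fit on all 14 samples (adjusted p = 0.0528) and without the second Epi-piPSC-FL6i sample (adjusted p = 0.0974). Its size rested on the pESCLC-primary pair, being 2.23 without the first and 0.81 without the second of these samples.

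Epi-piPSC-FLB2i also had 4 genes higher than pESCLC-primary, with ND5 called and ND6 not called. Of all 14537 genes 54.5% were called here, 26.4% as higher and 28.1% as lower. ND1 rose by 1.07 ± 0.23 (adjusted p = 0.00639), ND2 by 0.86 ± 0.22 (adjusted p = 0.0124), ND3 by 0.63 ± 0.17 (adjusted p = 0.0192) and ND5 by 0.80 ± 0.24 (adjusted p = 0.0253), and ND4 was at 0.58 ± 0.27 (adjusted p = 0.106). The estimate for ND6, 0.85 ± 0.40 (adjusted p = 0.112), was as large as that for ND5 with a wider error, and a difference between the genes was not tested. With the replicate number as a block in limma the calls were exchanged: ND5 lost its call (adjusted p = 0.0613) and ND6 gained one. Without the second Epi-piPSC-FLB2i sample the estimate for ND5 fell to 0.53. The estimate for ND6 also moved widely with single samples left out. Its values are given at the end. The median over the 7 was 0.80, and all genes together had a median of 0.00. A single fit on all 14 samples called 1 of the 7. All 7 genes were higher in the second Epi-piPSC-FLB2i sample than in the first. With single samples left out, the log2 fold change ran from 0.76 to 1.37 for ND1 and from 0.58 to 1.14 for ND2. It ran from 0.39 to 0.87 for ND3 and from 0.53 to 1.06 for ND5. The number of calls moved in both directions with the sample left out, as given below.

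**Figure D3:**
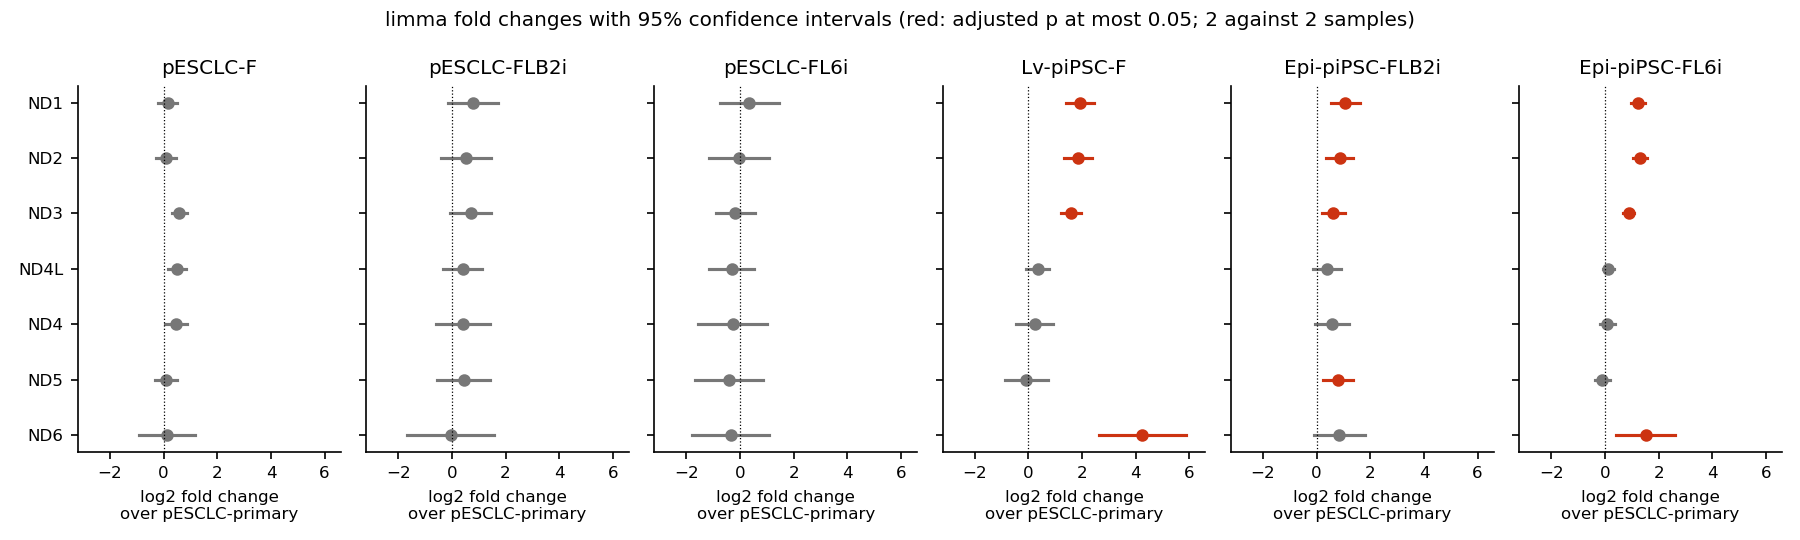
Log2 fold change of each of the 7 genes over pESCLC-primary in the 6 other groups, with 95% confidence intervals from limma; red points were called at an adjusted p of at most 0.05 and grey points were not. In Lv-piPSC-F and Epi-piPSC-FL6i ND1, ND2, ND3 and ND6 are red and ND4L, ND4 and ND5 lie near 0; in Epi-piPSC-FLB2i ND5 is red and ND6 is not.

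The medium was compared within each origin. The 2 media were represented by different lines in each: B1 and C2 for pESCLC, and B5 against C10 and C11 for Epi-piPSC. Medium and line therefore cannot be told apart in these comparisons. Among pESCLC lines, FL6i against FLB2i gave 0 of 7 calls, with 0% of the 14495 genes called, 0 of the 7 at an unadjusted p under 0.05 (4.58% of all genes) and 0 of the 7 called by DESeq2 (1.16%) or edgeR (0%). All 7 estimates were negative (median −0.68, against −0.00 over all genes), such as ND3 at −0.87 ± 0.43 (adjusted p = 0.901) and ND5 at −0.86 ± 0.66, and none was called. Leaving out 1 sample gave medians from −1.04, without the passage 3 sample of pESCLC-FLB2i, to −0.28, without its passage 6 sample; without the first or the second pESCLC-FL6i sample the median was −0.90 and −0.44. Among Epi-piPSC lines 61.0% of 14252 genes were called, 30.4% higher in FL6i and 30.6% lower, and of the 7 genes ND5 was lower (−0.89 ± 0.20, adjusted p = 0.0051) and ND6 higher (0.67 ± 0.19, adjusted p = 0.0143). ND2 (0.44 ± 0.20, adjusted p = 0.0833) and ND4 (−0.49 ± 0.24, adjusted p = 0.107) lay on opposite sides without a call. In a single fit on all 14 samples neither gene was called, whereas leaving out the first or the second Epi-piPSC-FLB2i sample gave 4 and 5 calls (58.6% and 60.4% of all genes) and leaving out the second Epi-piPSC-FL6i sample gave 1 (51.6%): ND5 was called, and ND6 was at 0.37 (adjusted p = 0.0684), so the call and size of ND6 rest on that sample. Whether the difference between FL6i and FLB2i groups differed between the 2 origins was tested as an interaction over 8 samples. It was called for 0 of the 7 genes, against 3.19% of 15248. Only ND3 had an unadjusted p under 0.05 (1.12 ± 0.46, adjusted p = 0.225), as had 21.6% of all genes, and DESeq2 and edgeR called none of the 7 (13.9% and 2.26% of all).

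The origin was compared between groups with the same medium label. Both groups labelled F had FGF2, but their base media differed in the study's description, as given above. Origin and base medium therefore cannot be told apart there. Lv-piPSC-F was higher than pESCLC-F in ND1 (1.78 ± 0.18, adjusted p = 0.00581), ND2 (1.77 ± 0.19, adjusted p = 0.00602), ND3 (0.99 ± 0.14, adjusted p = 0.00925) and ND6 (4.12 ± 0.43, adjusted p = 0.00593), where 40.5% of 14239 genes were called and 20.0% were higher. The log2 fold change of ND6 exceeded 3 here too, as for 11.5% of genes. ND4L (−0.16, 95% interval −0.63 to 0.30), ND4 (−0.23, −0.92 to 0.46) and ND5 (−0.15, −0.95 to 0.64) had negative estimates that did not pass the test, and without the first Lv-piPSC-F sample ND5 was called lower (−0.50, adjusted p = 0.0365). The 4 higher genes were called without either Lv-piPSC-F sample: without the first ND1 was at 1.76, ND2 at 1.82, ND3 at 1.00 and ND6 at 3.50 (54.1% of all genes called), and without the second they were at 1.80, 1.71, 0.97 and 4.74 (52.2%). Without either pESCLC-F sample none of the 7 was called, in fits that called 0% and 0.0959% of all genes. In FLB2i medium, Epi-piPSC against pESCLC gave 0 of 7 calls, against 10.9% of 14397 genes, with 0 at an unadjusted p under 0.05 (32.4% of all genes) and none by DESeq2 (21.5%) or edgeR (9.45%). ND6 was at 0.89 ± 0.41 (adjusted p = 0.206), and 3 genes were called higher without the second pESCLC-FLB2i sample, the one at passage 6 (19.8% of all genes called higher). In FL6i medium, all 7 genes were higher in both Epi-piPSC samples than in both pESCLC samples (median log2 fold change 0.89), as were 33.6% of all genes. By limma only ND6 was called (1.88 ± 0.27, adjusted p = 0.0334), where 12.3% of 14452 genes were called and 4.29% were higher. ND3 (1.05 ± 0.26, adjusted p = 0.0736) and ND2 (1.34 ± 0.44, adjusted p = 0.12) missed the threshold. DESeq2 called 3 of the 7 and 26.5% of all genes, and edgeR called 1 of the 7 and 8.82%, so the share of all genes called moved with the method too. The single fit on all 14 samples also called 3 of the 7, for which no share of all genes is given. The number of calls there depended on single samples: 7 without the first and 4 without the second pESCLC-FL6i sample, in fits that called 37.2% and 32.8% of all genes higher, and 0 without either Epi-piPSC-FL6i sample, where 0% of all genes were called.

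Summed, the 7 genes held 218400 and 211002 normalized counts in pESCLC-primary, 273605 and 244587 for pESCLC-F, 227381 and 159608 for pESCLC-FL6i, 230318 and 399861 for pESCLC-FLB2i, 456431 and 395443 for Lv-piPSC-F, 294340 and 447253 for Epi-piPSC-FLB2i, and 310008 and 310566 for Epi-piPSC-FL6i. Group means over that of pESCLC-primary were 1.98 (Lv-piPSC-F), 1.73 (Epi-piPSC-FLB2i), 1.45 (Epi-piPSC-FL6i), 1.21 (pESCLC-F), 1.47 (pESCLC-FLB2i) and 0.901 (pESCLC-FL6i). Relative to the reads on all 37 genes of the mitochondrial genome, the same ratios were 0.984, 1.03, 1.10, 1.23, 1.17 and 0.971, so in the 3 piPSC groups the share of the 7 genes within mitochondrial reads was closer to that of pESCLC-primary than their level was. That share was 25.8% to 34.9% over the 14 samples, and all mitochondrial genes together took 3.64% to 8.51% of the reads.

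Because ND1 and ND2 passed the test in Lv-piPSC-F and Epi-piPSC-FL6i where ND4 and ND5 did not, their ratio within a sample, which no size factor changes, was computed after the values were seen and is given without a test. Summed counts of ND1 and ND2 over those of ND4 and ND5 came to 0.450 and 0.468 for pESCLC-primary, 0.400 and 0.415 for pESCLC-F, 0.693 and 0.616 for pESCLC-FL6i, 0.534 and 0.551 for pESCLC-FLB2i, 1.30 and 1.95 for Lv-piPSC-F, 0.563 and 0.551 for Epi-piPSC-FLB2i, and 1.02 and 1.18 for Epi-piPSC-FL6i. The Lv-piPSC-F and Epi-piPSC-FL6i samples lay above all others, without overlap between the 2 groups. Group means were 3.55 and 2.41 times that of pESCLC-primary there, and 0.888 to 1.43 times in the other groups. The duplicates that differed most in summed level, pESCLC-FLB2i and Epi-piPSC-FLB2i, were close in this ratio. ND6 over ND5, both per kilobase, was 1.03 and 0.704 for Lv-piPSC-F, 0.105 and 0.163 for Epi-piPSC-FL6i, and between 0.0270 and 0.0680 for the other 10 samples, with pESCLC-primary at 0.0680 and 0.0271. ND4L over ND4 per kilobase, which compares the 2 genes of a shared mRNA, was 0.723 and 1.22 in Lv-piPSC-F and 0.763 to 0.927 elsewhere.

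**Figure D4:**
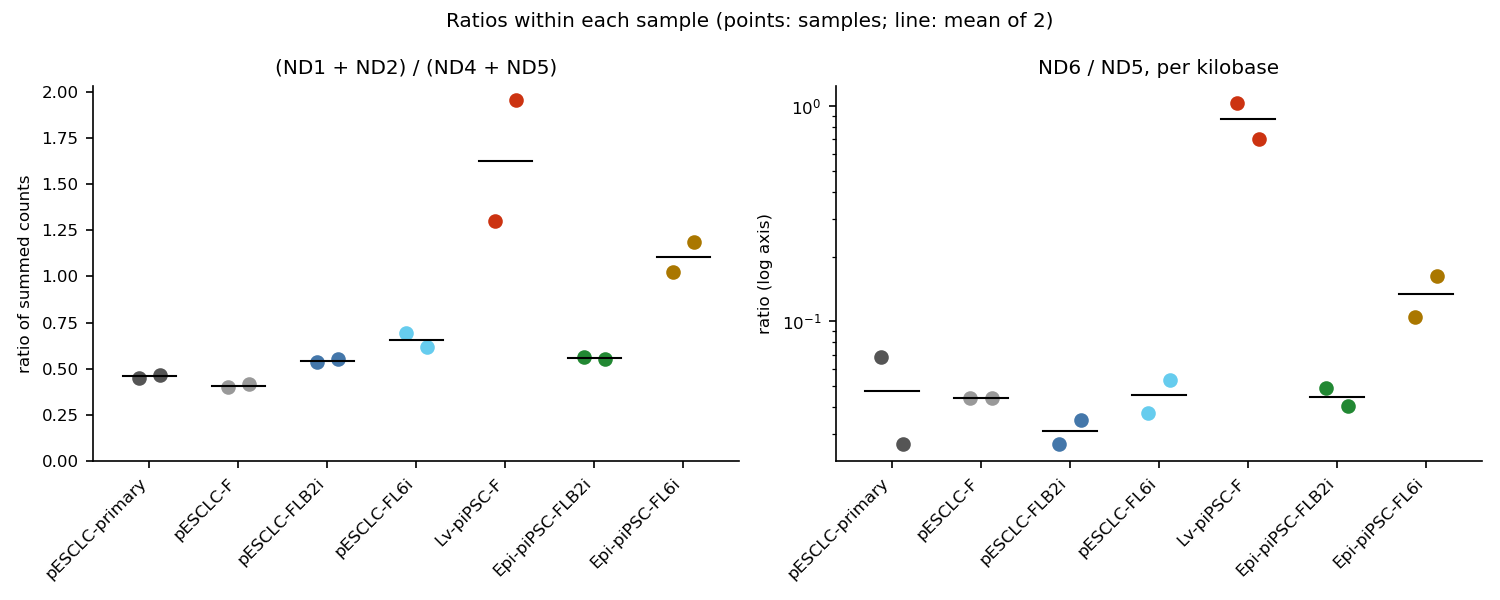
Ratios of genes within each sample: left, summed normalized counts of ND1 and ND2 over those of ND4 and ND5; right, ND6 over ND5 per kilobase (log axis). Dots are samples and lines are group means; samples of Lv-piPSC-F and of Epi-piPSC-FL6i are above all other samples in both panels.

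The 7 genes did not vary as a single block over the samples. Across the 14 samples, which share size factors and fall in pairs of like cells, Pearson's r of log2 values was 0.975 between ND1 and ND2, 0.917 between ND2 and ND3, 0.889 between ND4 and ND5 and 0.887 between ND4L and ND4. It was 0.266 between ND1 and ND5 and 0.237 between ND2 and ND5. ND6 went with ND2 (0.874) and ND1 (0.839) rather than with its neighbour ND5 (0.0432). The Lv-piPSC-F pair weighs in the values for ND6 with ND1 and ND2, as all 3 genes were highest there. ND6 held 23378 and 9917 in that pair and at most 2836 in the other groups, and r without the pair was not computed. These correlations describe the samples at hand and carry no test.

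Duplicates differed in a gene-wide way in some groups. In pESCLC-FLB2i all 7 genes were higher at passage 6 than at passage 3 of line B1, by 1.58 to 2.22 times, and in Epi-piPSC-FLB2i all 7 were higher at passage 12 than at passage 9 of line B5, by 1.19 to 1.64 times. In pESCLC-FL6i the passage 9 sample was at 0.623 to 1.02 times the passage 3 sample of line C2. Lines C10 and C11 of Epi-piPSC-FL6i, in contrast, were within 0.888 to 1.51 times of each other, with ND6 furthest apart. Each pair holds 1 sample per passage, so no test of passage was made.

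The 6 other mitochondrial mRNAs, which encode subunits of complexes III, IV and V, moved in part with the 7. In Lv-piPSC-F against pESCLC-primary 3 of 6 rose (ATP6 by 1.60, COX2 by 1.53 and CYTB by 1.06) and none fell, with a median of 1.10. ATP8, which was not called, differed widely between the duplicates. It held 18876 and 84025 normalized counts in the first and second Lv-piPSC-F samples, against 19530 and 16614 in pESCLC-primary. In Epi-piPSC-FL6i 4 of 6 rose, among them ATP8 by 0.91, CYTB by 0.80 and ATP6 by 0.74 (median 0.74). In Epi-piPSC-FLB2i COX1 alone was called (0.96, adjusted p = 0.0466), and between the Epi-piPSC media CYTB was higher in FL6i (1.23) and COX1 lower (−1.15). All these calls are from limma. Of all genes, 18.3% were called higher in Lv-piPSC-F, 28.5% in Epi-piPSC-FL6i and 26.4% in Epi-piPSC-FLB2i. Between the Epi-piPSC media 30.4% were higher in FL6i and 30.6% lower. The 16.7% of the list called higher in Epi-piPSC-FLB2i, and the 16.7% called in each direction between the media, were below these shares.

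Complex I is completed by subunits encoded in the nucleus, and lists of these were described beside the 7 genes. In Lv-piPSC-F against pESCLC-primary 5 of the 6 nuclear core subunits tested rose and none fell (median log2 fold change 0.82), including NDUFS1 (1.75 ± 0.38, adjusted p = 0.0255), which carries iron-sulfur clusters, and NDUFV1 (0.52, adjusted p = 0.0364), which binds NADH. Of 22 supernumerary subunits 12 rose and none fell (median 0.86), such as NDUFA9 (0.91), and of 14 assembly factors 6 rose (median 0.79), led in size by NDUFAF4 (2.32). The median over all genes was −0.03. Without a test of a list, these counts are read only against the 18.3% of genes called higher. In Epi-piPSC-FL6i 3 of 6 core subunits (median 0.28) and 12 of 22 supernumerary subunits (0.30) rose and none fell, and 7 of 14 assembly factors rose and 1 fell (0.44), against 28.5% of genes called higher. In Epi-piPSC-FLB2i, where 26.4% of all genes rose and 28.1% fell, 1 core subunit rose, NDUFS1 (0.35, adjusted p = 0.0464), and 2 fell, among them NDUFS3 (−0.76); 3 supernumerary subunits rose, among them NDUFS4 (1.21), and 5 fell, among them NDUFS6 (−1.09); and 1 assembly factor rose, NUBPL (0.95), and 2 fell, FOXRED1 (−0.76) and ACAD9 (−0.62). These shares, 16.7% higher and 33.3% lower for the core and 13.6% and 22.7% for the supernumerary subunits, were near or below those of all genes. ND1, ND2 and ND3 were called higher there while the median of the nuclear core subunits was −0.16.

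Genes for mitochondrial transcription and RNA handling were counted in the same way. In Lv-piPSC-F 15 of 26 rose, 57.7% against 18.3% of all genes, and none fell (median 1.14): LRPPRC, which with SLIRP stabilises mitochondrial mRNAs, rose by 1.98 ± 0.15 (adjusted p = 0.00418), the mitochondrial transcription and packaging factor TFAM by 1.19 ± 0.16 (adjusted p = 0.00951) and the RNA-binding FASTKD2 by 2.03. The mitochondrial RNA polymerase POLRMT (0.45, adjusted p = 0.0683) and SLIRP (0.87, adjusted p = 0.0615) were not called. In Epi-piPSC-FL6i 13 of 26 rose and 2 fell (median 0.35), where 28.5% of all genes rose and 28.4% fell, with TFAM (0.83, adjusted p = 0.000677), LRPPRC (0.82, adjusted p = 0.00109) and SLIRP (0.60, adjusted p = 0.0267) higher and POLRMT at 0.01. In Epi-piPSC-FLB2i 3 rose and 8 fell (median −0.33): LRPPRC rose by 0.54 and the RNA granule protein GRSF1 by 1.00, POLRMT (−0.37, adjusted p = 0.0433) and the transcription factor TFB2M (−1.68) fell, and TFAM was at −0.17 without a call; the 30.8% of the list that fell is near the 28.1% of all genes. Between the Epi-piPSC media, where 30.4% of all genes were higher in FL6i and 30.6% lower, 15 of 26 (57.7%) were higher in FL6i and 2 (7.69%) lower, TFAM by 0.99 (adjusted p = 0.000188), and 4 of 6 core subunits (66.7%) were higher, NDUFS3 by 1.00.

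Of the glycolysis genes, more fell than rose in Lv-piPSC-F and more rose than fell in Epi-piPSC-FLB2i. In Lv-piPSC-F 1 of 17 rose and 6 fell against pESCLC-primary (median −0.63), with the lactate exporter SLC16A3 at −6.17 and the hexokinase HK2 at −2.09. In Epi-piPSC-FLB2i 8 rose and 1 fell (median 0.52), PGK1 by 1.30, and in Epi-piPSC-FL6i 4 rose and 5 fell (median 0.08). The shares of the list in Epi-piPSC-FL6i (23.5% and 29.4%) were near the 28.5% and 28.4% of all genes, whereas 47.1% rose in Epi-piPSC-FLB2i against 26.4% and 35.3% fell in Lv-piPSC-F against 18.6%. Between the Epi-piPSC media 2 were higher in FL6i and 9 lower (30.4% and 30.6% of all genes), ALDOC by −2.29. In pESCLC-F, where 3.19% of all genes were called, PGK1 was the only gene of these lists to be called (0.76, adjusted p = 0.0392). In pESCLC-FLB2i, where 15.1% of all genes rose and 13.4% fell, 7 glycolysis genes rose (41.2%) and 1 fell (median 0.78), and 1 of the 26 transcription and RNA genes rose and 7 (26.9%) fell (median −0.45). Of the complex I lists 2 core subunits, the supernumerary subunit NDUFA10 (−0.78) and the assembly factor ACAD9 (−1.04) fell and none rose. In pESCLC-FL6i, where 8.59% of all genes rose and 6.71% fell, 1 gene of these lists, in transcription and RNA handling, fell and the rest were not called.

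**Figure D5:**
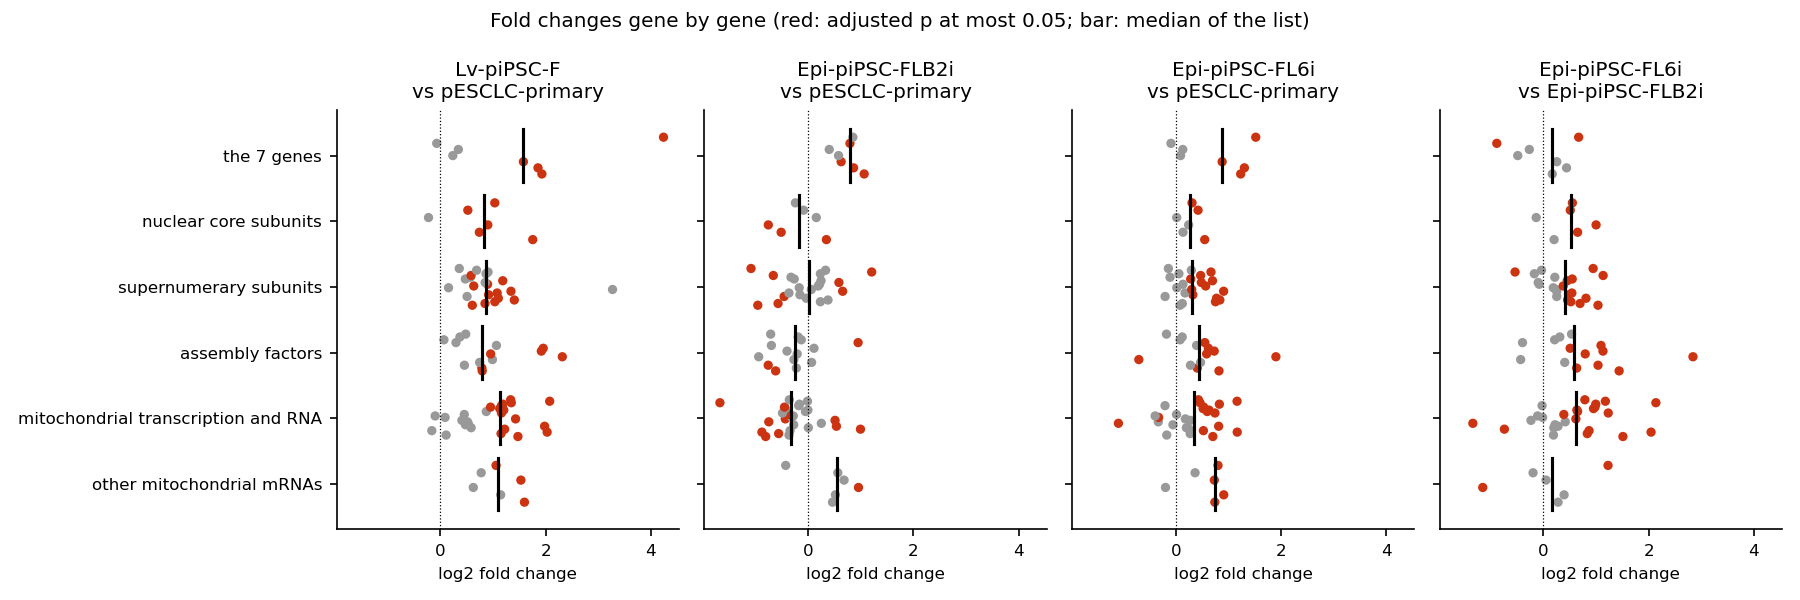
Log2 fold change, gene by gene, of the 7 genes and of 5 lists, for the 3 piPSC groups against pESCLC-primary and for Epi-piPSC-FL6i against Epi-piPSC-FLB2i, on a common axis; red dots were called by limma, grey dots were not, and bars are list medians. Nuclear complex I lists and mitochondrial RNA genes have positive medians in Lv-piPSC-F (0.79 to 1.14) and Epi-piPSC-FL6i (0.28 to 0.44) and medians from −0.33 to 0.01 in Epi-piPSC-FLB2i.

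Markers of cell type differed between the same groups. Of the 10 pluripotency markers 4 (NANOG, LIN28A, ESRRB and KLF4) were matched in the table by symbol; their sum, most of it LIN28A, was 5546 and 5537 normalized counts in pESCLC-primary, 6080 and 5379 for pESCLC-F, 9688 and 8360 for Lv-piPSC-F, 2420 and 2103 for Epi-piPSC-FLB2i and 14049 and 16505 for Epi-piPSC-FL6i. The sum was 100.02 and 103 for pESCLC-FLB2i and 151 and 1690 for pESCLC-FL6i, of which 1653 in the last sample was KLF4. In these lines LIN28A (at most 32.3, against at least 5185 in pESCLC-primary) and NANOG (at most 24.6, against at least 178) were called lower by limma, and ESRRB and KLF4 were not called. The sum also hides members that went the other way: in Epi-piPSC-FL6i NANOG was 0.97 and 1.00 (called lower) while LIN28A, ESRRB and KLF4 were called higher, and in Epi-piPSC-FLB2i KLF4 was 181 and 115 against 30.5 and 6.56 in pESCLC-primary (called higher) while the other 3 were called lower. The 8 trophectoderm markers, led by the keratin KRT8, summed to 341751 and 398350 for pESCLC-primary and 481409 and 464559 for pESCLC-F, against 91483 and 77227 for Lv-piPSC-F, 13100 and 7832 for Epi-piPSC-FLB2i and 7253 and 11402 for Epi-piPSC-FL6i; they were at most 742 for pESCLC-FLB2i and pESCLC-FL6i, where HAND1 or CDX2 was listed at 0 in each sample. Of 7 primitive endoderm markers 6 were in the table, led by GATA4, and they summed to at least 16086 for pESCLC-primary and pESCLC-F and at most 1340 in the other 10 samples; AFP was listed at 0 in both pESCLC-primary samples. Fibroblast markers (7 of 8 in the table, led by COL3A1 or COL1A1) summed to 18749 and 11903 for pESCLC-primary, 2466 and 6602 for pESCLC-F, 24010 and 20359 for Epi-piPSC-FLB2i and 14563 and 18438 for Epi-piPSC-FL6i, beside the values of the other groups given above. Members of this list also went opposite ways: 3 were called higher and 3 lower in Epi-piPSC-FLB2i, and 2 higher and 3 lower in Epi-piPSC-FL6i, with COL1A1 at 7216 and 6030.02 in Epi-piPSC-FLB2i against 2053 and 1318 in pESCLC-primary and DCN at 10.3 and 0.92 against 309.9 and 279.8. The transcription factors of the trophectoderm list did not all follow the keratins: in pESCLC-F HAND1 and TFAP2C were called lower than in pESCLC-primary while KRT8 was not called, CDX2 was called higher in Epi-piPSC-FLB2i, and TFAP2C and GATA2 were called higher in Epi-piPSC-FL6i. The pESCLC-primary samples are the control of 6 comparisons. The part of cell makeup in the differences of the 7 genes was not tested.

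Among the genes outside the mitochondrial genome whose log2 values went most closely with the summed 7 genes over the 14 samples, of 15998 compared, were PPHLN1 (Pearson's r 0.922), an unnamed gene (ENSSSCG00000005453, 0.873), NIT1 (0.869) and NEPRO (0.859). PPHLN1 ranged from 422 to 1418 normalized counts, far below the mitochondrial genes. With 14 samples in 7 pairs and so many genes searched, these values describe likeness of pattern and are given without a test.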

How the data were processed

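RNA libraries (TruSeq stranded mRNA, paired-end reads of 50 bp) of 14 samples were aligned by the authors to Sscrofa11.1 with TopHat2 2.1.0, counted per gene with HTSeq at default parameters and normalized with DESeq2; its version and the annotation release are not given in the sources used here. The authors deposited these normalized counts (signal values), with replicates kept apart. All values (100%) were whole multiples of what 1 read is worth in the sample (tolerance 0.001 reads, largest deviation 1.80e-09), which gave whole reads back. No 2 samples were identical.

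Groups came from the sample labels. The main test was limma 3.58.1 (R 4.3.3), comparing groups of 2 by log2(normalized count + 1) with trended moderation of the variance, for genes that reached 10 normalized counts in 2 or more samples of the comparison, with Benjamini-Hochberg adjustment over all of them. The study used DESeq2; DESeq2 1.42.0 and edgeR 4.0.16 were run on the recovered reads as alternatives. Other alternatives were a pseudocount of 5, all genes above 0, a single fit on 14 samples, the replicate number as a block, scaling to the total reads of a sample, size factors without mitochondrial genes, and each sample left out in turn; ratios per kilobase were added after seeing the data. The tests were also run on simulated reads that had the same variance setting for all genes and samples. The spread between duplicates differed between groups in these data, so no conclusion is drawn from that run.

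The 7 genes, the lists and the tests were chosen with earlier results of these data known. Named besides the 7 were, per list and comparison, up to 3 genes in each direction with the smallest adjusted p among those called; TFAM, POLRMT, LRPPRC, SLIRP, NDUFS1 and NDUFV1; and the 5 genes most correlated with the summed 7; some genes that these rules name are not reported here. Symbols, available for 14151 of 19588 genes, and sequences came from RefSeq's Sscrofa11.1.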

Additional observations from a re-analysis of the deposited data

Results flagged for a closer look

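ENSSSCG00000018076, a small unnamed gene of the mitochondrial genome that was in no comparison of the report, held 6098.72 normalized counts in the first Lv-piPSC-F sample and 8.74 to 94.3 elsewhere, highest in the second Lv-piPSC-F sample. ENSSSCG00000018064 was listed at 0 in the first Lv-piPSC-F sample and held 266 to 2246 in the others. Of the 24 unnamed genes among the 37 of the mitochondrial genome, that sample was above every other sample in 8 and below every other in 3. In most of the 8 the second Lv-piPSC-F sample was the next highest. ENSSSCG00000018096, for example, held 183 and 94.0 in these 2 samples and at most 37.3 in the other groups. The cause was not tested. ND6 was also higher in the first Lv-piPSC-F sample than in the second (23378 and 9917), and both were above all other samples.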

How the results depend on the processing

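The number of the 7 genes called was within 1.5 times its main value in all 12 comparisons with a pseudocount of 5, all genes above 0, edgeR, scaling to total reads and size factors without mitochondrial genes. DESeq2 called 3 genes in pESCLC-F against pESCLC-primary (0 by limma), where it called 9.18% of all genes and limma 3.19%. It called 3 in Epi-piPSC-FL6i against pESCLC-FL6i (1 by limma), where it called 26.5% of all genes and limma 12.3%. For the single fit on 14 samples no share of all genes called is given, so its counts are not read against a background. That fit called 1 in Epi-piPSC-FLB2i against pESCLC-primary (4), 0 in Epi-piPSC-FL6i against Epi-piPSC-FLB2i (2) and 3 in Epi-piPSC-FL6i against pESCLC-FL6i (1). The cause was not tested.

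With each sample left out in turn, the calls against pESCLC-primary ranged from 0 to 0 in pESCLC-F, 0 to 5 in pESCLC-FLB2i, 0 to 1 in pESCLC-FL6i, 0 to 5 in Lv-piPSC-F, 1 to 6 in Epi-piPSC-FLB2i and 3 to 4 in Epi-piPSC-FL6i. They ranged from 1 to 5 between the Epi-piPSC media, 0 to 0 between the pESCLC media and in the interaction, 0 to 5 for Lv-piPSC-F against pESCLC-F, 0 to 3 for Epi-piPSC-FLB2i against pESCLC-FLB2i and 0 to 7 for Epi-piPSC-FL6i against pESCLC-FL6i. Without the second Lv-piPSC-F sample 3 negative, uncalled log2 fold changes turned positive; over the samples left out, ND5 against pESCLC-primary ranged from −0.41 to 0.27 and, against pESCLC-F, ND4 from −0.46 to 0.0030 and ND5 from −0.50 to 0.19.

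Replicate numbers did not pair the samples: deviations of same-numbered samples correlated at −0.07 to 0.07 except between the pESCLC-FL6i and pESCLC-FLB2i pairs (0.360). With the replicate number as a block, the counts of calls were those of the main test in all 12 comparisons (4 in each of the 3 piPSC groups against pESCLC-primary), although in Epi-piPSC-FLB2i ND5 had an adjusted p of 0.0613 and ND6 one of 0.0244. The log2 fold change of ND6 there ranged from 0.14 to 1.56 with single samples left out. All groups held 2 samples, several of them passages of the same line, and the fewest reads on a member in a sample were 242 (ND6).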
